A study of Homo sapiens with 4 samples.

Results

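Fibronectin (FN1), TGFBI, tenascin C (TNC), thrombospondin 1 (THBS1), SPARC, periostin (POSTN), LTBP2, IGFBP7, IGFBP3 and FSTL1 were followed in OVCA420 cells, a human epithelial ovarian cancer cell line, through 7 days of TGF-β1 treatment. They are 10 of the 33694 genes counted and were taken by their symbols as secreted proteins of the extracellular matrix. Single-cell RNA-seq was performed on untreated cells (Ctrl) and on cells given 10 ng/mL TGF-β1 for 1 day, 3 days or 7 days (1-day, 3-day and 7-day), with 1 library per condition and all 4 harvested at the same time. The treated cells received fresh TGF-β1 with new medium during the course, and cells of every condition were grown in medium with serum. With 1 library per condition no difference could be tested against replicates, so that each interval given here covers counting error only.

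Matricellular proteins are secreted into the matrix mainly to modulate how cells adhere and signal rather than to bear load. Fibronectin is a fibril-forming glycoprotein that cells bind and assemble through integrins, and TGF-β signaling through SMAD2 and SMAD3 is a classical inducer of its gene and of TGFBI, which was named for that induction. THBS1 can activate latent TGF-β, and LTBP2 is a microfibril-associated relative of the proteins that hold latent TGF-β in the matrix. Fibronectin and tenascin C are widely used as mesenchymal matrix markers in epithelial-to-mesenchymal transition (EMT).

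The DNA just upstream of the transcription start is shown for the 5 genes with a mean of at least 5 counts per 1000000 UMIs (CPM), which fall into an early and a late group below, and for POSTN, which was close to absent. RefSeq start sites on GRCh38.p14 matched 9 of the 10 genes, all but IGFBP7. Each line gives the 250 bases upstream of the start, written 5′ to 3′ along the gene's strand, with capitals for matches on either strand to 9 motifs. These were the AP-1 site (TGANTCA), the cAMP response element (TGACGTCA), the palindromic SMAD element (GTCTAGAC) and the short one (CAGAC), the TEAD site (GGAATG), the TATA box (TATAAA), the GC box (GGGCGG), the CCAAT box and the CArG box. Matches to the GC box can overlap each other.
FN1, chr2:215436069-215436318, minus strand: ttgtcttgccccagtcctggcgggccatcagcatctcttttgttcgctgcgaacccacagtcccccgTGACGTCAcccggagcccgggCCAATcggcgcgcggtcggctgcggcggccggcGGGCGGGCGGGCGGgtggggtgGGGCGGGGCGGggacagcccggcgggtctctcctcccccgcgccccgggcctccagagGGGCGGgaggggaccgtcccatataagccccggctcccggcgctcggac
TNC, chr9:115118158-115118407, minus strand: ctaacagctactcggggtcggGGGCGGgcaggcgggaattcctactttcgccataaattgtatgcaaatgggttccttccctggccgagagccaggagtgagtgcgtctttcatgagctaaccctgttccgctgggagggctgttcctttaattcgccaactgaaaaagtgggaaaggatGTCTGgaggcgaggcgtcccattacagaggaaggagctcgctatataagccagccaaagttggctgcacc
TGFBI, chr5:136028738-136028987, plus strand: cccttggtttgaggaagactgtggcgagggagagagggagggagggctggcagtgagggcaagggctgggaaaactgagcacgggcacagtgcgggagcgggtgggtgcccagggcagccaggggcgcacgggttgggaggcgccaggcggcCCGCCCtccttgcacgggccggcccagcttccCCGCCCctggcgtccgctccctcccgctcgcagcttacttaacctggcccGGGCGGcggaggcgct
THBS1, chr15:39580829-39581078, plus strand: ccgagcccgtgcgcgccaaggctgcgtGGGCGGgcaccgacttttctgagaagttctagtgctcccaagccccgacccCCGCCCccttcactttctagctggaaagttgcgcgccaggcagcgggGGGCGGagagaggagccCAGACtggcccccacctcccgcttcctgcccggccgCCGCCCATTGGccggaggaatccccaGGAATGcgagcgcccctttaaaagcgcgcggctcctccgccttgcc
LTBP2, chr14:74612238-74612487, minus strand: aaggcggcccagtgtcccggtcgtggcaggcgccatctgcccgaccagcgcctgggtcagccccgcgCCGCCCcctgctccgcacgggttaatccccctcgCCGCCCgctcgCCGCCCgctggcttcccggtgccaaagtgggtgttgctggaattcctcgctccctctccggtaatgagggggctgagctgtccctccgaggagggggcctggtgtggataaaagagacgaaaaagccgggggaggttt
POSTN, chr13:37598769-37599018, minus strand: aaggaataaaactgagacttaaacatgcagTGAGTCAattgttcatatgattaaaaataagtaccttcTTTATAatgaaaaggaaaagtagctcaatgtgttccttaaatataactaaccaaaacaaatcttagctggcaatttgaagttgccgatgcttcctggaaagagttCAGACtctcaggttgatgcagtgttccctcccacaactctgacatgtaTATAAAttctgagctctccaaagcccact

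The late genes FN1 and TNC did not share a composition in these windows. FN1 had a GC content of 76.4%, 6 matches to the GC box and the cAMP response element that 1.65% of all 35116 windows of the same length held, whereas TNC had a GC content of 54.8% and 1 match to the GC box. The GC box was found in 7 of the 9 windows against 42.6% of all windows, and the short SMAD element in 3 of the 9 (TNC, THBS1 and POSTN) against 38% of all. TGFBI, THBS1 and LTBP2 had a GC content of 72.8%, 69.6% and 68.8%, all above the median window at 58%. POSTN stood apart with a GC content of 36.4%. It had a TATA box match that starts 29 bases before the start site and the AP-1 site, motifs that 10.7% and 6.57% of windows held. Only the exact letters TATAAA were counted as a TATA box, and the FN1 and TNC windows hold the similar letters ATATAA close to the start site. The THBS1 and LTBP2 windows also hold similar letters there, TTTAAAA and ATAAAA, so this does not set the late genes apart. The palindromic SMAD element and the CArG box had no match in the 9 windows. Only 0.182% and 1.16% of all windows held them, so their absence from 9 windows says little. These are matches of letters and not measured binding sites.

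From the cell lists of 10710 barcodes, 3170 cells were read and 3144 retained (569 to 937 per library), with 25382817 to 32949874 UMIs (counted molecules) per library. Cells were deeper in the treated course, with medians from 30270 UMIs in Ctrl to 43553 at 3-day, so shares of cells were also computed at 18000 UMIs per cell. Pairs of libraries shared at most 7 cell barcodes. All 8 epithelial markers were measured, with EPCAM between 296.7 and 361.1 CPM, but not all were this level. In order of time, 2, 1 and 1 of the 8 were at least 2-fold above Ctrl and 1, 2 and 2 at least 2-fold below. KRT19 was at 1178, 990, 519 and 581 CPM in Ctrl, 1-day, 3-day and 7-day. ELF3 was at 269, 48.0, 28.7 and 52.8 CPM and KRT7 at 346, 942, 1080 and 881 CPM. The labelled ovarian origin was not visible in its usual markers, since WT1 had 0 UMIs, PAX8 was at most 0.333 CPM and MUC16 was at 2.97 CPM in Ctrl and at 0.425 CPM or less after treatment. The 7 fibroblast markers summed to 0.315 to 1.47 CPM with COL3A1 at 0 UMIs, and the endothelial, immune and smooth muscle markers summed to 0.311 to 5.40, 2.13 to 6.22 and 1.49 to 4.31 CPM per library. CDH5 made up most of the endothelial sum in Ctrl (5.37 CPM), CD68 was at 1.53 to 6.19 CPM and RGS5 at 0.512 to 3.49 CPM, while CLDN5 was at 0 UMIs and PTPRC at 2 UMIs in Ctrl and 0 elsewhere.

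Across the 10 genes, 7 were at least 2-fold above Ctrl at 1-day (TGFBI, TNC, THBS1, SPARC, LTBP2, IGFBP7 and FSTL1), where 9.25% of the 9659 genes with a mean of at least 5 CPM were. At 3-day the number was 6 (FN1, TGFBI, TNC, THBS1, LTBP2 and FSTL1), against 9.92% of those genes, and at 7-day it was 7 (the same 6 and SPARC), against 11.3%. IGFBP3 was the one at least 2-fold below Ctrl at each time, on 8 UMIs or fewer in a library, where 8.52%, 5.25% and 4.91% of genes were 2-fold lower. The count includes genes below that mean: FN1, TGFBI, TNC, THBS1 and LTBP2 reached it, and TNC and LTBP2 did so through the treated libraries alone. The median log2 ratio of all 9659 genes was -0.06, 0.04 and 0.10 at 1-day, 3-day and 7-day. The 10 genes were chosen with earlier results of these data known, so no excess over the shares of all genes is drawn from their counts.

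**Figure D1:**
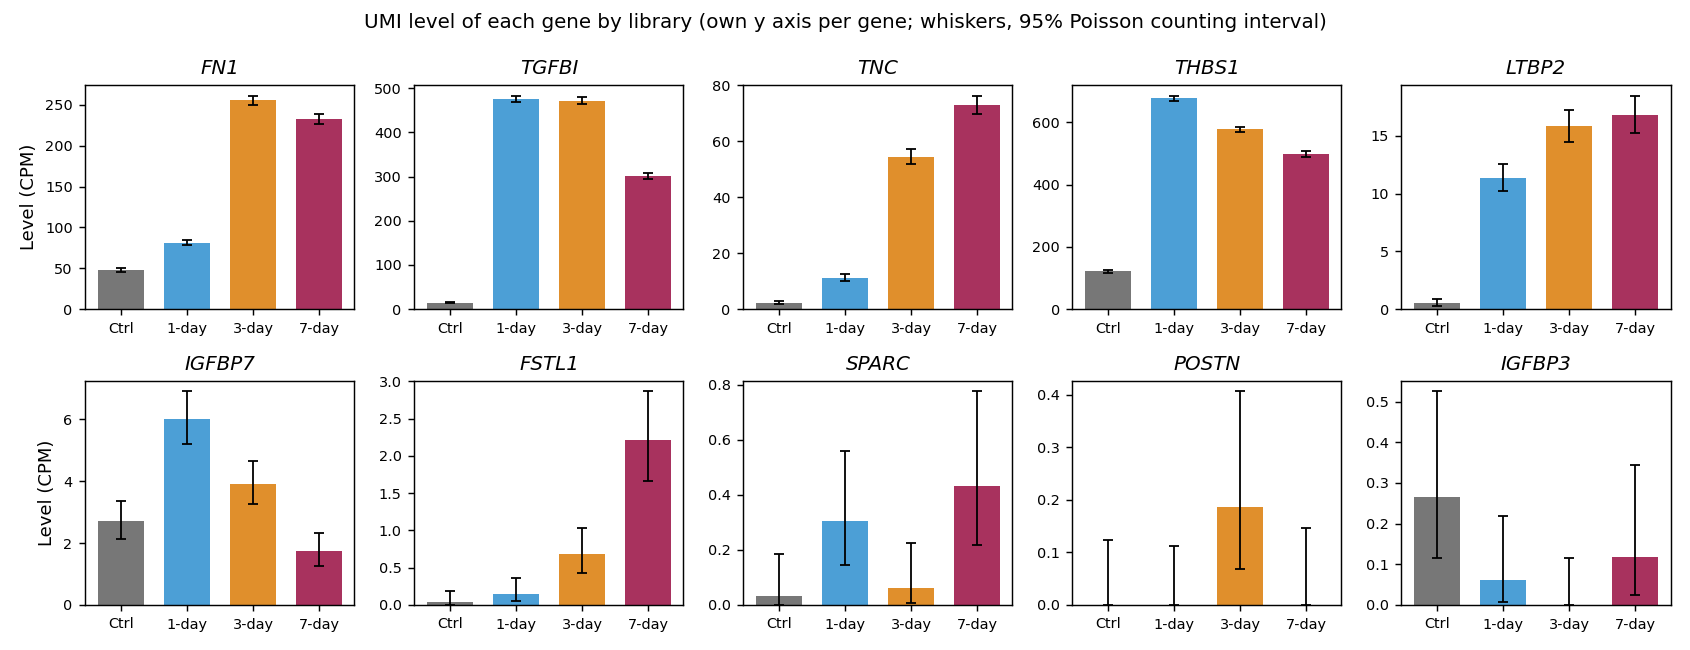
Level of each of the 10 genes (y axis, CPM, a separate axis from 0 for each gene) in the 4 libraries (x axis). Bars are levels and whiskers are 95% Poisson counting intervals. TGFBI and THBS1 were highest at 1-day, FN1 at 3-day, and TNC, LTBP2 and FSTL1 at 7-day.

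FN1, fibronectin, was mainly higher from 3-day on. The gene lies at chr2:215360440-215436073 on the minus strand of GRCh38 and had 48.1 CPM before treatment and 81.1, 256 and 232 CPM after 1, 3 and 7 days, from 1442 to 8218 UMIs per library. The log2 ratio to Ctrl was 0.75 (95% interval 0.66 to 0.85) at 1-day, 2.41 (2.33 to 2.49) at 3-day and 2.27 (2.19 to 2.36) at 7-day. Of the CPM gained by 3-day, 15.9% was present at 1-day, and the largest step was from 1-day to 3-day, with a log2 ratio of 1.66 (1.59 to 1.72). By rank from the top of the 9659 genes, FN1 moved from 1250 at 1-day to 222 at 3-day and 267 at 7-day. The 7-day level was slightly below the 3-day level, by more than counting error (log2 ratio -0.14, -0.19 to -0.09). In G1 cells alone, given below, the intervals of these levels overlapped, so the drop is not firm.

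TNC, tenascin C, a large hexameric glycoprotein (chr9:115019575-115118207, minus strand), was higher in each library than in the one before. Ctrl had 2.17 CPM, and 1-day, 3-day and 7-day had 11.2, 54.4 and 72.9 CPM, each above the one before by more than counting error. The log2 ratios to Ctrl were 2.37 (1.99 to 2.77), 4.65 (4.29 to 5.03) and 5.07 (4.71 to 5.45), and 12.8% of the 7-day gain in CPM was present at 1-day. Thus FN1 and TNC shared the large step between 1-day and 3-day, of 3.15-fold and 4.86-fold, a step of at least 2-fold that 4.78% of genes made. FSTL1 made it as well, as did POSTN against a floor of 3 counts at 1-day (log2 1.04 on 6 UMIs), and SPARC went the other way on 10 and 2 UMIs, where 2.46% of genes were at least 2-fold lower. From 3-day to 7-day TNC was 1.34-fold higher while FN1 was at 0.908 of its level, and neither passed 2-fold. Among the low genes FSTL1 and SPARC were at least 2-fold higher between those times, against 1.17% of genes, and IGFBP7 at least 2-fold lower, against 0.911%.

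TGFBI, a secreted protein that binds collagens and integrins (chr5:136028988-136063818, plus strand), was near its highest level by 1-day. Untreated cells had 14.5 CPM, and cells treated for 1, 3 and 7 days had 476, 471 and 301 CPM. The log2 ratio to Ctrl was 5.04 (4.90 to 5.18) at 1-day, a 32.9-fold difference that ranked 27 of 9659 genes. The 1-day and 3-day levels did not differ beyond counting error (log2 ratio -0.01, -0.05 to 0.02), and the 7-day level was 0.637 of the 3-day level (log2 ratio -0.65, -0.69 to -0.61).

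THBS1, a trimeric matricellular protein of adhesion and angiogenesis (chr15:39581079-39599466, plus strand), was also highest at 1-day. Ctrl had 121 CPM, and the treated libraries had 677, 577 and 498 CPM in order of time. The log2 ratio to Ctrl was 2.48 (2.43 to 2.53), 2.25 (2.20 to 2.31) and 2.04 (1.99 to 2.09), a decline of more than counting error at each step after 1-day. THBS1 was already detected in 83.4% of Ctrl cells before treatment.

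LTBP2 (chr14:74498183-74612378, minus strand) was higher early and stayed so. It was close to absent in Ctrl with 16 UMIs (0.533 CPM), and the treated libraries had 11.4, 15.8 and 16.8 CPM in order of time. The log2 ratio to Ctrl was 4.42 (3.70 to 5.24), 4.89 (4.18 to 5.71) and 4.98 (4.26 to 5.80), and 66.6% of the gain was present at 1-day. The 3-day level was above the 1-day level (log2 ratio 0.48, 0.28 to 0.67), whereas 7-day and 3-day did not differ beyond counting error (0.09, -0.10 to 0.28).

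**Figure D2:**
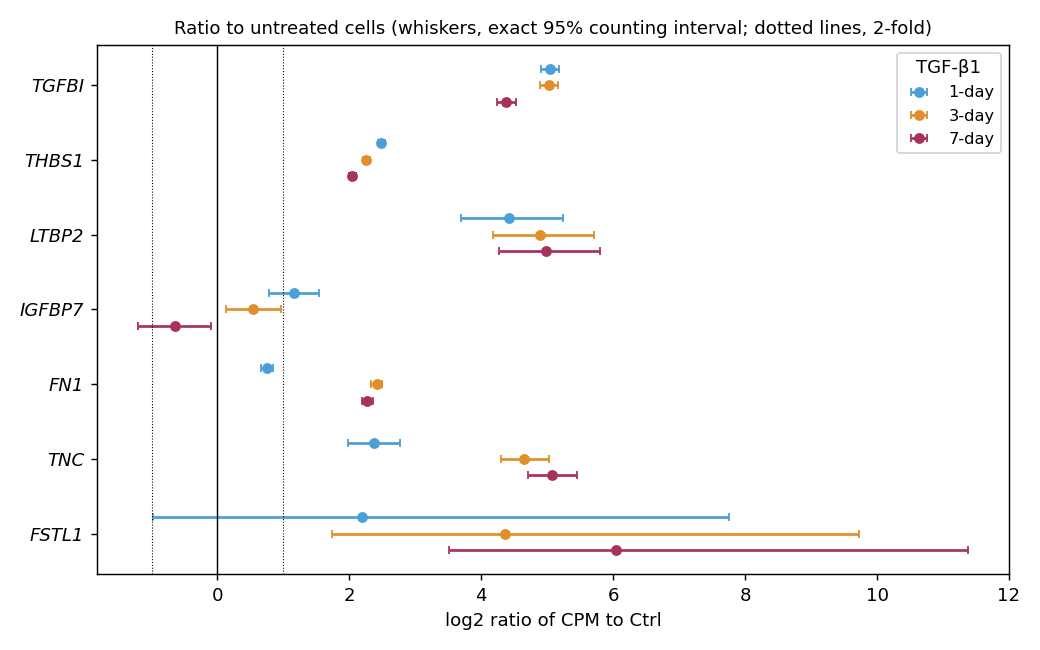
Log2 ratio of CPM to Ctrl (x axis) at 1-day, 3-day and 7-day for 7 of the genes (y axis; SPARC, POSTN and IGFBP3 are left out for their few UMIs); points are ratios, whiskers are exact 95% counting intervals and dotted lines mark 2-fold. TGFBI and THBS1 moved back toward Ctrl from 1-day to 7-day, FN1, TNC and FSTL1 moved away, and IGFBP7 crossed from 1.15 to -0.64.

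The low genes differed in timing. IGFBP7, a secreted protein that binds IGFs weakly (chr4:57030773-57110385, minus strand), was transient, with 2.70 CPM in Ctrl and 6.01, 3.92 and 1.73 CPM in order of time, from 81, 198, 126 and 44 UMIs. The log2 ratio to Ctrl was 1.15 (0.77 to 1.55), 0.54 (0.12 to 0.96) and -0.64 (-1.20 to -0.09). At 18000 UMIs per cell the 1-day ratio was 0.87 (0.33 to 1.44), above Ctrl but under 2-fold. The 7-day interval included 0 in G1 cells alone (-1.35 to 1.18), at 18000 UMIs per cell (-1.42 to 0.25) and with a mitochondrial limit of 10% (-1.12 to 0.04), so that the 7-day level was below Ctrl only by a margin near counting error. POLR2B and IGFBP7-AS1 overlap IGFBP7 on the opposite strand.

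FSTL1, a secreted glycoprotein with a follistatin domain (chr3:120392293-120451016, minus strand), was late. It had 1, 5, 22 and 56 UMIs in Ctrl, 1-day, 3-day and 7-day, which is 0.0333, 0.152, 0.684 and 2.21 CPM. The cells with at least 1 UMI numbered 1, 5, 17 and 44, so the UMIs were spread over many cells. The ratio to Ctrl, with its single UMI, is poorly bounded at 7-day (log2 6.05, 3.51 to 11.38), whereas the 7-day level exceeded the 3-day level by 1.69 (0.95 to 2.47) and the 3-day level exceeded the 1-day level by 2.17 (0.74 to 3.93) on the log2 scale.

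SPARC, POSTN and IGFBP3 stayed near the limit of detection. SPARC (chr5:151661096-151686975, minus strand), a collagen-binding protein of mesenchymal cells, had 1, 10, 2 and 11 UMIs in Ctrl, 1-day, 3-day and 7-day. POSTN (chr13:37562583-37598844, minus strand), a TGFBI relative with the same fasciclin domains, had 6 UMIs in 3 cells at 3-day and 0 UMIs elsewhere, a count of 0 that, at 3 counts of the cells, allows up to 0.322%, 0.320% and 0.527% of cells with a UMI in Ctrl, 1-day and 7-day. This limits cells with a UMI and not cells expressing the gene. With Ctrl set at a floor of 3 counts per library, the 3-day log2 ratio was 0.90 with a counting interval from 0.14, and in G1 cells alone it was -0.27, so no difference from Ctrl is drawn from it. IGFBP3 (chr7:45912245-45921874, minus strand), the main carrier of IGFs in serum, had 8 UMIs in Ctrl and 2, 0 and 3 UMIs at 1-day, 3-day and 7-day, and the share of cells with a UMI was at most 0.750% in any library. The 2-fold counts of SPARC at 1-day and 7-day and of FSTL1 at 1-day rest on 5 to 11 UMIs.

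Timing was then summarized as the share of the largest change in CPM from Ctrl that was present at 1-day, with early set at 50% or more. By this measure 6 genes were early, TGFBI, THBS1, LTBP2 and IGFBP7 and, on 11 UMIs or fewer in a library, SPARC and IGFBP3. The 1-day ratio of IGFBP3 was downward and within counting error (-5.41 to 0.19), and at 18000 UMIs per cell 3 genes were early, TGFBI, THBS1 and LTBP2. FN1 (15.9%), TNC (12.8%) and FSTL1 (5.45%, with 5 UMIs at 1-day) were late, and POSTN could not be classed. On the log2 scale the shares were 31.3% for FN1, 46.7% for TNC and 36.1% for FSTL1, and no gene changed group. A gene with its largest change at 1-day has a share of 100% by definition, as TGFBI, THBS1, IGFBP7 and IGFBP3 had. How many of all tested genes are early by this measure was not computed. No excess of early or late genes is therefore drawn from these counts.

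The change per cell took different forms at 18000 UMIs per cell. TGFBI went from 19.7% of cells with a UMI in Ctrl to 96.6%, 98.4% and 94.5% at 1-day, 3-day and 7-day, and its mean per cell from 0.230 to 8.55, 8.77 and 5.58 UMIs, so that nearly every treated cell held it. THBS1 was present in 72.5% of Ctrl cells and in 97.3% to 97.6% of treated cells, and its 10th percentile was 2 UMIs per cell in each treated library. FN1 was found in 49.1%, 63.8%, 86.0% and 85.2% of cells, with medians of 0, 1, 3 and 3 UMIs. TNC remained uneven: 2.25%, 7.67%, 32.9% and 50.5% of cells had a UMI.

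At 3-day the top 10% of cells by TNC (68 cells) held 62.7% of its UMIs, where equal Poisson cells would give 30.5%. At 7-day 55 cells held 49.5% against 27.0%. The same share for FN1 was 39.7% at 7-day against 19.1%, and for TGFBI it was 28.5% against 18.0%. The variance over the mean was 3.65 for TNC, 8.44 for FN1, 4.30 for TGFBI and 6.22 for THBS1 at 7-day, above the value of 1 of a Poisson count, so the counting intervals above are narrower than the spread between cells allows. LTBP2 had 1.14, close to 1, with 24.6% of cells with a UMI. These cells form one cell line, and no cell type that lacks the genes was at hand to measure free RNA, so the lowest shares, such as 2.25% for TNC in Ctrl, may include it. Without thinning, the 65 TNC UMIs in Ctrl lay in 35 cells with up to 17 in a cell, so they were not evenly spread. Their source was not tested.

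**Figure D3:**
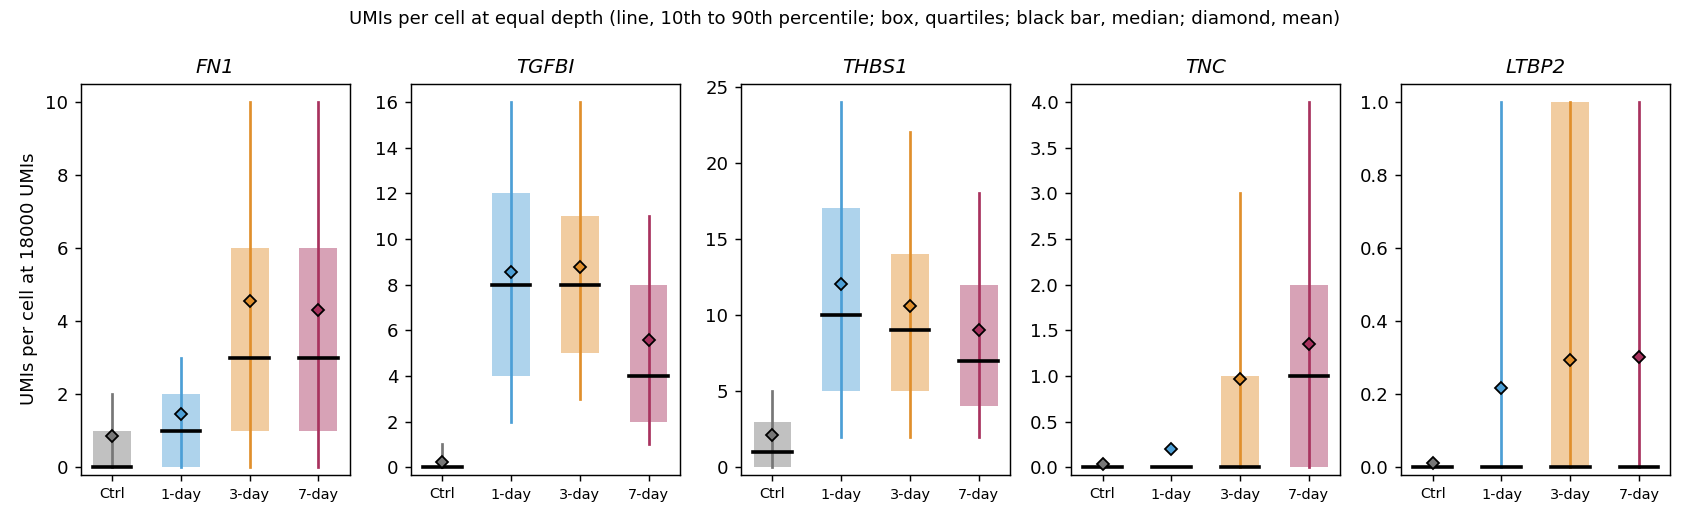
UMIs per cell at 18000 UMIs (y axis) for 5 genes in the 4 libraries (x axis). Lines span the 10th to 90th percentile, boxes the quartiles, black bars are medians and diamonds are means. The 10th percentile of TGFBI and THBS1 was above 0 in the treated libraries, whereas TNC had a median of 0 until 3-day and of 1 at 7-day.

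Cell cycle phase, called from lists of S and G2M genes and not from DNA content, moved with the treatment, and the share of G1 cells was 27.2% in Ctrl and 73.1%, 49.6% and 40.9% in the treated libraries in order of time. Several of the genes were higher in G1 than in G2M cells of the same library once TGF-β1 was present. THBS1 was level between phases in Ctrl, with 126 CPM in G1 and 124 CPM in G2M (log2 G1 over G2M 0.02, -0.09 to 0.14). In treated libraries it was higher in G1 by 0.88 (0.82 to 0.94), 0.92 (0.87 to 0.97) and 0.96 (0.90 to 1.02), reaching 685 CPM in G1 and 352 CPM in G2M at 7-day.

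FN1 was higher in G1 in each library, and by more along the course, with log2 ratios of 0.33 (0.15 to 0.51), 0.45 (0.29 to 0.61), 0.85 (0.77 to 0.92) and 1.03 (0.94 to 1.11) in Ctrl, 1-day, 3-day and 7-day. TNC was higher in G1 by 1.55 (0.99 to 2.16), 1.39 (1.21 to 1.58) and 1.31 (1.15 to 1.47) at 1-day, 3-day and 7-day. TGFBI differed less, by 0.25, 0.09 and 0.51, and the LTBP2 intervals included 0 in the treated libraries. The genes at least 2-fold higher in G1 were 0.911% to 1.55% of all tested genes in a library, and the median log2 ratio of all genes was -0.08 to -0.06.

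G2M cells were deeper, with a median of 44928 UMIs at 7-day against 43159 in G1. The difference in FN1 was present in UMIs per cell too, at 14.0 per G1 cell and 7.28 per G2M cell at 7-day, as it was in THBS1, at 30.0 and 16.4. IGFBP7 ran the other way at 1-day, with 4.32 CPM in G1 and 12.2 CPM in G2M (log2 -1.49, -1.94 to -1.04). It did so in Ctrl too, with 1.47 and 3.21 CPM (-1.12, -2.22 to -0.15).

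In G1 cells alone the main time courses remained, and the late declines of THBS1 and FN1 were smaller. THBS1 was at 758 CPM (747 to 769), 752 CPM (739 to 766) and 685 CPM (669 to 701) in G1 cells at 1-day, 3-day and 7-day, so that 1-day and 3-day overlapped. TGFBI was at 491, 487 and 352 CPM and kept its 7-day drop. FN1 was at 56.9, 87.4, 328 and 319 CPM and TNC at 2.81, 13.5, 76.1 and 108 CPM in G1 cells of Ctrl, 1-day, 3-day and 7-day. The FN1 intervals at 3-day (319 to 337 CPM) and 7-day (308 to 330 CPM) overlapped. The log2 ratio of IGFBP7 to Ctrl in G1 cells was 1.55 (0.65 to 2.60) at 1-day and 1.37 (0.42 to 2.45) at 3-day. Its G1 levels at these times, 4.32 CPM (3.52 to 5.24) and 3.80 CPM (2.87 to 4.92), overlapped, so its fall from 1-day to 3-day was not firm in G1 cells.

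**Figure D4:**
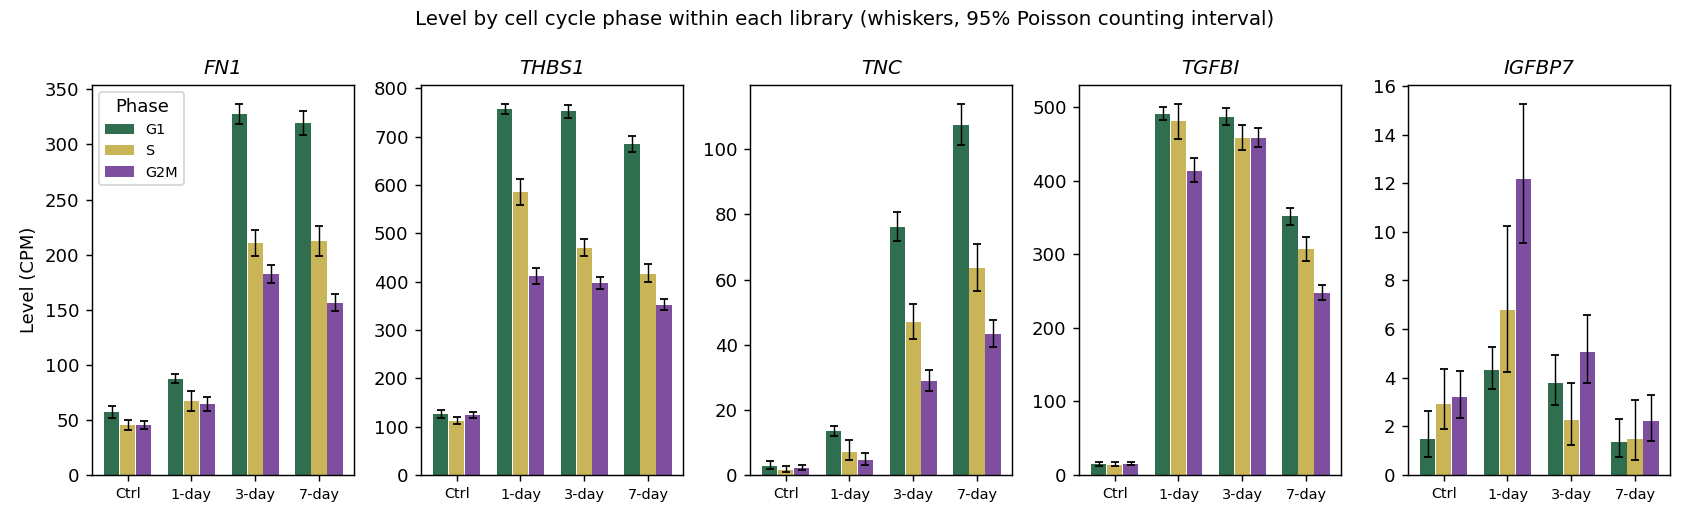
Level (y axis, CPM) of 5 genes in G1, S and G2M cells (colors) of each library (x axis), with 95% Poisson counting intervals as whiskers. THBS1 was between 112 and 126 CPM in all phases in Ctrl and was highest in G1 in the treated libraries, and IGFBP7 was highest in G2M at 1-day.

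Correlations from cell to cell were computed for genes with a UMI in at least 50% of cells at 18000 UMIs per cell. These were FN1, TGFBI and THBS1 in the treated libraries and TNC at 7-day only, and Ctrl had no such pair. Between these genes the correlations were 0.47 or lower in all cells of a library. At 18000 UMIs per cell, TGFBI and THBS1 had a Pearson r of 0.46 over 900 cells at 1-day, 0.29 over 677 cells at 3-day and 0.30 over 549 cells at 7-day. FN1 and THBS1 had 0.22, 0.35 and 0.40, and the early and late genes TGFBI and FN1 had 0.11, 0.20 and 0.31. In G1 cells alone at 7-day, a restriction added after the values had been seen, the value for FN1 and TGFBI was 0.08 and that for TGFBI and THBS1 was 0.19. This fall was not seen at each time. In G1 cells these pairs had 0.26 and 0.33 at 3-day, above the values in all cells, and 0.08 and 0.47 at 1-day. The late genes FN1 and TNC had 0.27 in all and 0.19 in G1 cells at 7-day, and TNC and THBS1 had 0.47 and 0.49. These correlations describe cells that share a library and carry no test.

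Cells with a TNC UMI also had more THBS1 than cells without, a split that was chosen after the values had been seen. THBS1 was at 330 against 114 CPM in Ctrl (19 and 825 cells), 1119 against 630 CPM at 1-day, 787 against 493 CPM at 3-day and 639 against 357 CPM at 7-day. FN1 was at 108 against 78.1 CPM at 1-day, 322 against 218 CPM at 3-day and 304 against 173 CPM at 7-day. In Ctrl it was at 23.4 against 47.7 CPM. That log2 ratio of -1.03 (-2.25 to -0.04) rests on 19 cells with TNC and an interval close to 0, so no reversal is drawn from it. TGFBI was also higher with TNC, at 601 against 465 CPM at 1-day, 518 against 472 CPM at 3-day and 361 against 258 CPM at 7-day. Its interval in Ctrl included 0. LTBP2 was higher at 7-day, at 20.7 against 12.7 CPM, and its intervals at 1-day and 3-day included 0. So did those of IGFBP7 in Ctrl, 1-day and 3-day and of FSTL1 at 7-day. G1 cells were 49.5% of cells with and 30.9% of cells without TNC at 7-day, and their part in these differences was not tested.

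Of 21 other matricellular genes 5 reached a mean of 5 CPM and 3 had 0 UMIs in all libraries. Of the 5, 3 were at least 2-fold above Ctrl at 1-day and at 3-day and 2 at 7-day, and 1 was at least 2-fold below at each time. Beside this and each list below stand the shares of all 9659 genes at 1-day, 3-day and 7-day. These were 9.25%, 9.92% and 11.3% at least 2-fold above Ctrl and 8.52%, 5.25% and 4.91% at least 2-fold below. With so few genes per list, a count of 1 differs little from these shares. The lists were also chosen with earlier results of these data known, so no excess over all genes is drawn from their counts or medians. Some listed genes, such as ITGA5, FSTL3 and MFAP5, reached a mean of 5 CPM only through treated libraries. CCN2 (CTGF) went from 12.9 CPM in Ctrl to 522, 557 and 293 CPM at 1-day, 3-day and 7-day, and CCN1 (CYR61), like it a target of TGF-β and YAP, from 25.4 to 332, 418 and 354 CPM. Osteopontin (SPP1) was lower after treatment, with 4001 CPM in Ctrl and 1350, 1165 and 1413 CPM in the treated libraries. FBLN1, a fibulin that binds fibronectin, was 18.4, 42.7, 42.9 and 32.2 CPM.

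Receptors of these proteins were 2-fold higher in part of the list. Of 18 integrin and other receptor genes 13 reached the mean level, and 6, 7 and 8 of them were at least 2-fold above Ctrl at 1-day, 3-day and 7-day with none 2-fold below. Their median log2 ratios were 0.83, 1.12 and 1.49, against -0.06, 0.04 and 0.10 over all 9659 genes. The medians of other lists lay on both sides of these. They were 0.39, 0.30 and 0.40 for the IGF axis and 3.54, 3.92 and 1.96 for the TGF-β1 response genes. ITGA5, the alpha chain of the classical fibronectin receptor, followed the late course with 1.33, 4.22, 12.8 and 34.7 CPM in Ctrl, 1-day, 3-day and 7-day. ITGAV had 45.1, 174, 234 and 248 CPM and its partner ITGB6, with which it binds fibronectin and activates latent TGF-β, had 29.0, 161, 190 and 227 CPM. CD44, a hyaluronan and osteopontin receptor, had 47.7, 41.9, 137 and 218 CPM.

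Among 13 latent TGF-β and microfibril genes 4 reached the mean level, with 2, 3 and 3 at least 2-fold up at 1-day, 3-day and 7-day. TGFB1 itself had 87.4, 252, 206 and 197 CPM, LTBP3 9.73, 23.9, 14.3 and 11.4 CPM, and LTBP4 10.4, 20.6, 22.7 and 22.3 CPM in Ctrl, 1-day, 3-day and 7-day. MFAP5, a microfibril protein, appeared late, with 0.467, 0.395, 3.64 and 25.5 CPM. Of 12 measured crosslinking and processing enzymes among 18, 4, 7 and 8 were at least 2-fold above Ctrl, and 1 was 2-fold below at 1-day. The transglutaminase TGM2, which crosslinks fibronectin, went from 14.0 to 335, 473 and 638 CPM, the proprotein convertase FURIN from 10.3 to 88.1, 55.5 and 33.1 CPM, LOXL4 from 11.2 to 68.9, 57.8 and 32.9 CPM, and PLOD2 from 12.0 to 20.8, 22.6 and 48.9 CPM.

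In the IGF axis, 5 of 13 genes reached the mean level, with 1, 1 and 0 at least 2-fold up and 0, 1 and 1 at least 2-fold down at 1-day, 3-day and 7-day. IGFBP2 had 16.1, 21.2, 9.18 and 2.56 CPM in Ctrl, 1-day, 3-day and 7-day, IGFBP6 21.6, 11.5, 6.66 and 15.1 CPM, IGFBP4 141, 320, 363 and 265 CPM, and the receptor IGF1R 50.8, 97.1, 82.0 and 67.2 CPM. Of 13 follistatin-domain relatives of SPARC and FSTL1, 3 reached it and 2 were at least 2-fold up at each time. These were the activin antagonists FSTL3, with 2.27, 115, 163 and 88.4 CPM, and FST, with 112, 288, 536 and 981 CPM, whereas AGRN had 50.5, 69.3, 88.2 and 90.9 CPM. FSTL3 thus had an early and FST a late course.

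As a reference for the treatment, 9 of 11 TGF-β1 response genes reached the mean level and 9, 8 and 8 were at least 2-fold above Ctrl. This list too was chosen with earlier results known, so its counts describe the listed genes only. PMEPA1, a feedback inhibitor of TGF-β signaling, had 66.8, 1501, 1385 and 962 CPM in Ctrl, 1-day, 3-day and 7-day. COL1A1 was highest at 1-day and lower after it, with 4.10, 141, 63.1 and 14.8 CPM. At 7-day it was still above Ctrl (log2 ratio 1.85, 1.56 to 2.16).

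By the distance between log2 ratios to Ctrl over the 3 treated libraries (with 1 CPM added), 5478 genes with a mean of at least 20 CPM were ranked against each of the 5 measured members. The nearest to FN1 were LPCAT2, CRIM1 and TNFRSF10D, at distances of 0.33 to 0.44. CTGF, ANGPTL4 and PMEPA1 were nearest to TGFBI (0.51 to 0.88), and SIRPA, FAM101B and RTTN to TNC (0.78 to 0.88). SKIL, a feedback inhibitor of SMAD signaling, was nearest to THBS1 (0.16), ahead of MTSS1 and AMIGO2 (0.26). NAV2, DEC1 and SMTN were nearest to LTBP2 (0.21 to 0.43). The added 1 CPM is large beside the 0.533 CPM of LTBP2 in Ctrl. It lowered the LTBP2 log2 ratios in order of time from 4.42, 4.89 and 4.98 to 3.01, 3.46 and 3.54. The distances from LTBP2 hold for these lowered ratios only. DEC1, annotated in GENCODE 44 as DELEC1, overlaps TNC on the opposite strand, as FSIP1 and THBS1-AS1 do THBS1, THBS1-IT1 overlaps THBS1 on its own strand, and which strand was counted is not given in the sources used here.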

How the data were processed

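Single-cell RNA-seq libraries of OVCA420 cells (Ctrl, 1-day, 3-day and 7-day) were analysed as deposited: the authors deposited UMI counts per gene and cell, without normalization, made with 10x Genomics 3′ chemistry and Cell Ranger (version 2.0.1 in the submitters' processing notes) on GRCh38 with default settings. Replicates were not available, so no p-value was computed. Each matrix was used up to its last complete cell, so 941, 945, 712 and 572 cells were read in barcode order, and sums describe part of each library. Cells with more than 200 genes and at most 20% mitochondrial UMIs were retained. Doublets were called with Scrublet in scanpy 1.11.5 (40 cells, 1.27%) and retained. Retained UMIs were summed per library and expressed as CPM with exact Poisson intervals. Log2 ratios have exact conditional intervals and shares of cells exact binomial intervals, at 95%, and these intervals and the floor of 3 counts cover counting error only. Ratios and intervals were tested on simulated Poisson counts. These lack the extra spread between cells seen here, so the intervals were not tested under that spread. Thinning to 18000 UMIs left out 89, 37, 28 and 20 cells. Cell cycle phase was scored with the lists that come with Seurat 5.3.0 (R 4.3.3). Python 3.11.15, numpy 2.4.6, scipy 1.17.1 and pandas 2.3.3 were used. Gene positions are from GENCODE 44. Named genes are the 10 members, from each list up to 4 genes with a mean of at least 5 CPM and the largest absolute log2 ratio, and the 3 genes nearest to each member measured at that mean; the markers and TNC with its split stand beside them. Some genes that this rule names are not reported here. The 10 genes, the lists and the motifs were chosen with earlier results of these data known. Alternatives changed the mitochondrial limit, doublets, phase, depth, scaling, the averaging over cells, the part of the cells, the fold and the filter.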

Additional observations from a re-analysis of the deposited data

Results flagged for a closer look

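IGFBP7 was the only one of the 10 genes with intervals on opposite sides of Ctrl at different times. Its log2 ratio to Ctrl was 1.15 at 1-day and 0.54 at 3-day but -0.64 at 7-day, from 198, 126 and 44 UMIs against 81 in Ctrl. With 1 library per time point, the difference between the time points was not tested beyond counting error. G1 cells, in which IGFBP7 was lower than in G2M cells beyond counting error in Ctrl and at 1-day, were 73.1% of the 1-day and 27.2% of the Ctrl cells, and in G1 cells alone the 7-day ratio was -0.10 (-1.35 to 1.18).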

How the results depend on the processing

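No paired analysis was possible because Ctrl and each time point hold a single library. Of 234 alternative values of single ratios, 200 moved by less than their counting interval, 33 moved by more and 1 changed sign. The change of sign was POSTN at 3-day, with a log2 ratio of -0.27 in G1 cells with Ctrl set at the floor. The number of genes at least 2-fold above Ctrl at 1-day was 4 in the first part of the cells in barcode order (TGFBI, TNC, THBS1 and LTBP2) against 7. Early genes were 3 at 18000 UMIs per cell (TGFBI, THBS1 and LTBP2) against 6. There SPARC and IGFBP3 had at most 6 and 2 UMIs in a library, while the 1-day log2 ratio of IGFBP7 was 0.87 (0.33 to 1.44), under 2-fold. In the first part of the cells the IGFBP7 ratio was 0.998. With a mean of 1 CPM as the filter, 10.2%, 10.9% and 12.9% of all genes were at least 2-fold above Ctrl at 1-day, 3-day and 7-day. The 3-day ratio of TNC was 4.13 in the first and 5.31 in the second part of the cells. SPARC, POSTN, IGFBP3 and, before 3-day, FSTL1 had too few UMIs to time firmly.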

Other observations

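Some genes that often accompany this matrix program were close to absent, and others were not. SNAI2, in the same reference list as VIM and CDH2, was at 3.80, 50.7, 57.5 and 39.1 CPM in Ctrl, 1-day, 3-day and 7-day. VIM had 0 UMIs in Ctrl and at most 0.243 CPM in the treated libraries, and COL1A2, which forms type I collagen with COL1A1, had 1 UMI in all 4 libraries. CDH2 was at 0.300, 0.212, 1.62 and 2.40 CPM in Ctrl, 1-day, 3-day and 7-day. CDH1, E-cadherin, was at 75.7, 119, 94.6 and 81.7 CPM, and ELF3, an epithelial transcription factor, went from 269 CPM in Ctrl to 48.0, 28.7 and 52.8 CPM. Among the low relatives, COMP had 38 UMIs at 1-day against 0 in Ctrl, and SPARCL1 had 86 UMIs in Ctrl and 0 at 3-day and 7-day. COMP, SPARCL1 and SNAI2 were chosen after their values were seen.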
